A study of Rattus norvegicus with 45 samples.

Results

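The genes for 3 cytochrome P450 enzymes that oxidise acetaminophen (APAP), Cyp2e1, Cyp1a2 and Cyp2c11, and for Por, the reductase that supplies P450 enzymes with electrons, were followed in rat liver after a high oral dose of APAP. These 4 members were chosen by symbol from the 13877 genes of the deposited expression table, all 4 were present with 1 probe set each, and no filter on low values was applied. The study used male Sprague-Dawley rats aged 5 weeks and fasted for 16 h. They were given 1000 mg/kg APAP by oral gavage in 1% hydroxyethylcellulose and examined at 3, 6, 9 or 24 h, or received this vehicle alone and were examined at the same times, or were examined undosed at 0 h (baseline). Each of the 9 groups held 5 animals, with 1 liver array per animal, so 45 arrays in all, and food was given again after the fast. APAP and vehicle animals of a time therefore share the fast, the vehicle and the gavage, whereas baseline animals share the fast alone. The question was whether the transcripts for the enzymes that activate APAP change during the injury, against time-matched vehicle animals and against the fasted starting level.

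APAP is an analgesic that liver clears mainly by coupling it to glucuronic acid or sulfate. A part is oxidised by P450 enzymes to NAPQI, a quinone imine that glutathione binds and that otherwise attaches to proteins. P450 enzymes are heme proteins of the endoplasmic reticulum, and they work only when Por, or in part cytochrome b5, hands them electrons from NADPH or NADH. They are most abundant in the hepatocytes around the central vein, which are also the cells that APAP injures.

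Cyp2e1 encodes the ethanol-inducible P450 known as a main source of NAPQI. Its gene lies at chr1:205269967-205280365 (GRCr8, RefSeq). Cyp1a2, which also metabolises caffeine and is induced through the aryl hydrocarbon receptor Ahr, lies at chr8:66971261-66978149. Cyp2c11, the male-specific P450 of rat liver that is kept up by pulses of growth hormone, lies at chr1:246175216-246211445. Por lies at chr12:26587674-26655612. The 60 bases before the annotated transcription start are shown for the 4 genes, on the gene's strand from RefSeq (GRCr8), because the P450 genes and Por differ there. Capitals mark the TATA box core TATAAA.
Cyp2e1, chr1:205269907-205269966, plus strand: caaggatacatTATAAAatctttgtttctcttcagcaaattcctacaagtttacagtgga
Cyp1a2, chr8:66978150-66978209, minus strand: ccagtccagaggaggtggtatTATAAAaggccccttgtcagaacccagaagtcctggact
Cyp2c11, chr1:246175156-246175215, plus strand: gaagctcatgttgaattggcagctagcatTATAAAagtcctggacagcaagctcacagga
Por, chr12:26635810-26635869, minus strand: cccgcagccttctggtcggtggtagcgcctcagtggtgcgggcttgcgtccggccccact

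The TATAAA match begins 49 bases before the start in Cyp2e1, 39 bases before it in Cyp1a2 and 31 bases before it in Cyp2c11, and Por has no match. Over 33469 rat promoters in the same RefSeq table, 2.61% held TATAAA on the gene's strand in this 60-base window. In the 250 bases before the start, the G and C content was 42.8% for Cyp2e1, 44% for Cyp1a2 and 40.8% for Cyp2c11, and 66% for Por, which was above 86.2% of promoters. Motifs were searched in those 250 bases on both strands. The Ahr element core GCGTG was found 3 times in Por and in none of the P450 promoters, against 25.9% of all promoters with a match. The GC box core GGGCGG was found 2 times in Por and in none of the P450 promoters (30.5% of all promoters), and CCAAT was found 1 time in Cyp2e1 and 2 times in Cyp2c11 (34%). The STAT element TTCNNNGAA (7.67% of all promoters) and the antioxidant response element core TGACNNNGC (10.1%) had no match in these windows of the 4 genes, and no matches of different motifs overlapped. The start used for Por lies within the annotated span of the gene. These matches describe letters in a window and not bound sites.

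All values are log2 intensities as the authors normalised them, so that 1 unit is a 2-fold difference, and changes are log2 fold changes ± SE from limma, with p-values adjusted over all genes. A gene was said to rise or fall at an adjusted p under 0.05 with a change of at least 1.5-fold. The p-values set a difference of group means against the spread between the 5 animals within each compared group. Limma adjusts that spread with the spread of all genes. Arrays of a group correlated across genes at 0.983 to 0.996, and array medians lay between 7.29 and 7.37. The liver label was checked on 14 hepatocyte markers, whose mean per animal was 13.41 to 13.73 in the 45 arrays. Neutrophil and monocyte markers (7 measured) averaged 5.18 to 6.31 and lymphocyte markers (10 measured) 6.16 to 6.51. An array gives no true zero, so no marker could be called absent.

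With APAP against vehicle, Por rose at 3, 6 and 9 h, Cyp2c11 fell at 9 and 24 h, Cyp1a2 fell at 24 h, and Cyp2e1 passed in none of the comparisons. In these bulk samples fewer cells of a type and less RNA per cell cannot be told apart. The span between the lowest and highest of the 9 group means was 0.32 for Cyp2e1, 1.47 for Cyp1a2, 3.23 for Cyp2c11 and 2.74 for Por, against a median span of 0.41 over all genes. In the comparisons of APAP with vehicle, 1 of the 4 members rose at 3 h, where 6.32% of all genes were called in either direction, and 1 rose at 6 h, where 14.1% were called. At 9 h 1 rose and 1 fell, with 17.1% of all genes called, and at 24 h 2 fell, with 3.4% called.

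**Figure D1:**
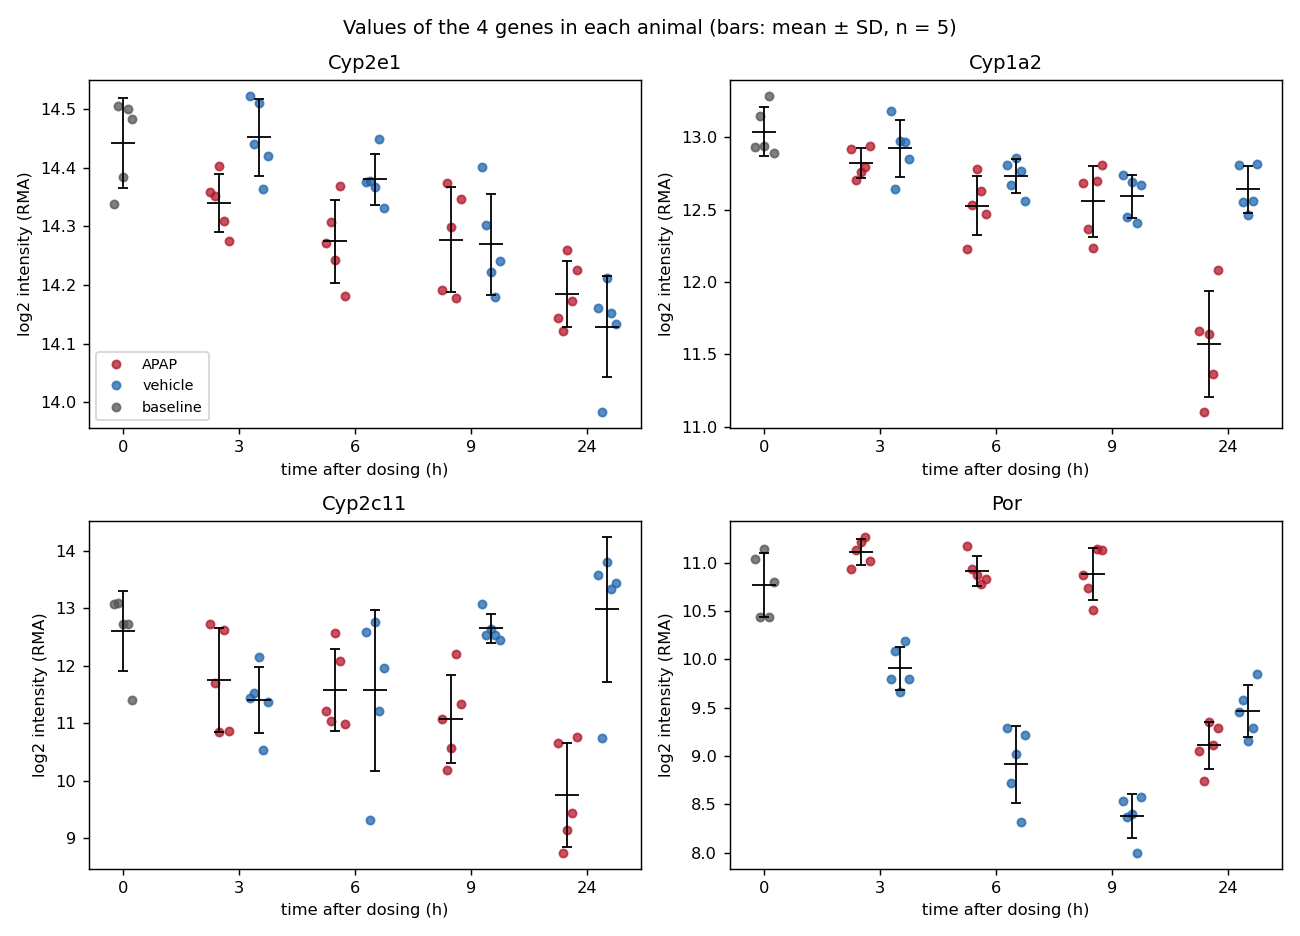
Log2 intensity (vertical axis) of Cyp2e1, Cyp1a2, Cyp2c11 and Por in each animal against time after dosing in h (points; red APAP, blue vehicle, grey baseline), with the mean ± SD of each group of 5 as a black bar; the vertical scales differ between panels and do not start at 0. Por lies between 10.51 and 11.27 in all APAP animals up to 9 h and between 8.00 and 10.20 in vehicle animals of those times, while the whole Cyp2e1 panel spans 0.54.

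Of the 4 genes, Por had the lowest adjusted p between APAP and vehicle animals at 3, 6 and 9 h. At 3 h its values were 10.94, 11.13, 11.21, 11.27 and 11.02 in APAP animals, against 9.80, 10.09, 9.66, 10.20 and 9.80 in vehicle animals. At 6 h they were 11.18, 10.94, 10.87, 10.78 and 10.83 with APAP, against 9.29, 8.72, 9.02, 8.32 and 9.22 with vehicle. At 9 h they were 10.88, 10.74, 10.51, 11.14 and 11.14 with APAP, against 8.54, 8.37, 8.40, 8.00 and 8.57 with vehicle. Every APAP animal was above every vehicle animal at these 3 times, an order found for 9.1%, 14.1% and 16.2% of all genes at 3, 6 and 9 h. At 24 h the groups overlapped, with 9.06, 8.74, 9.35, 9.12 and 9.29 in APAP animals and 9.46, 9.58, 9.16, 9.29 and 9.85 in vehicle animals.

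In limma, Por rose with APAP by 1.21 ± 0.10 at 3 h (2.31-fold, limma adjusted p = 6.15e-06), 4.01-fold at 6 h (SE 0.16 and 95% interval 1.65 to 2.35 on the log2 scale, adjusted p = 9.93e-07) and by 2.51 ± 0.14 at 9 h (5.68-fold, adjusted p = 4.54e-08). The shares of all genes called higher at these times were 3.34%, 7.06% and 8.65%. At 24 h the difference was -0.36 ± 0.14 and did not pass (adjusted p = 0.137). The interaction test put the APAP effect on Por 0.80 ± 0.20 higher at 6 h than at 3 h (limma adjusted p = 0.00833; 4.18% of all genes called in this direction). The step between 6 and 9 h, 0.50 ± 0.23, did not pass (adjusted p = 0.192), but did without replicate 4 of the 6 h vehicle group (0.65, adjusted p = 0.0445). Between 9 and 24 h the effect changed by -2.86 ± 0.21 (adjusted p = 2.87e-09; 8.03% of all genes called in this direction).

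Set against baseline, Por fell in the vehicle animals at every time and in the APAP animals at 24 h. The fasted baseline animals had 11.04, 10.44, 11.14, 10.44 and 10.80. The change in vehicle animals was -0.86 ± 0.15 at 3 h, -1.86 ± 0.19 at 6 h, -2.40 ± 0.15 at 9 h and -1.30 ± 0.16 at 24 h, and every vehicle animal lay below every baseline animal. Por fell in all 4 of these comparisons (adjusted p = 0.00132, 2.57e-05, 4.38e-07 and 9.36e-05), with 1.85%, 2.33%, 2.92% and 2.93% of all genes called lower and 7.07%, 9.07%, 10.2% and 9.74% lower without overlap. At 9 h the vehicle mean was 5.26-fold below the baseline mean. APAP animals at 3, 6 and 9 h differed from baseline by 0.34 ± 0.14, 0.15 ± 0.14 and 0.11 ± 0.16, and none of these passed (adjusted p = 0.100, 0.435 and 0.624). Their 95% intervals were 0.05 to 0.64, -0.15 to 0.45 and -0.24 to 0.46. By 24 h the APAP animals too were below baseline (-1.66 ± 0.15, 3.16-fold lower, limma adjusted p = 1.02e-05; 3.89% of all genes called lower). These comparisons share arrays, since the baseline and each APAP and vehicle group enter several of them.

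Ranked by mean, Por was highest in the APAP groups at 3, 6 and 9 h and at baseline (11.12, 10.92, 10.88 and 10.77), and neighbours in that order overlapped. A gap of 0.86 without overlap separated baseline from the next group, vehicle at 3 h (9.91). Vehicle at 24 h (9.47), APAP at 24 h (9.11), vehicle at 6 h (8.92) and vehicle at 9 h (8.38) followed, each overlapping its neighbour.

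Markers of some cell types also differed between the groups in which Por did. The 14 hepatocyte markers averaged 13.64 to 13.73 in APAP animals and 13.51 to 13.62 in vehicle animals at 3 h, and 13.67 to 13.71 and 13.54 to 13.58 at 6 h, without overlap at either time. Of these 14 genes 1 was called, Tat, tyrosine aminotransferase, which rose by 2.06 ± 0.14 at 3 h and 2.11 ± 0.11 at 6 h, and the median change of the list was -0.02 at both times, against -0.02 and -0.04 over all genes. The 8 cholangiocyte markers averaged 6.12 to 6.21 with APAP and 6.28 to 6.49 with vehicle at 3 h, 6.19 to 6.29 and 6.31 to 6.48 at 6 h, and 6.22 to 6.36 and 6.40 to 6.52 at 9 h. The 11 stellate cell and fibroblast markers averaged 7.41 to 7.54 with APAP and 7.57 to 7.77 with vehicle at 6 h, and 7.30 to 7.51 and 7.58 to 7.74 at 9 h. The 9 endothelial markers averaged 8.31 to 8.54 with APAP and 8.69 to 8.81 with vehicle at 9 h. In the comparison of vehicle with baseline, endothelial markers averaged 8.65 to 8.81 in vehicle animals of the 4 times and 8.84 to 8.90 at baseline, and cholangiocyte markers 6.31 to 6.58 in vehicle animals at 6, 9 and 24 h and 6.20 to 6.30 at baseline, again without overlap. Their part in the results for Por was not tested.

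**Figure D2:**
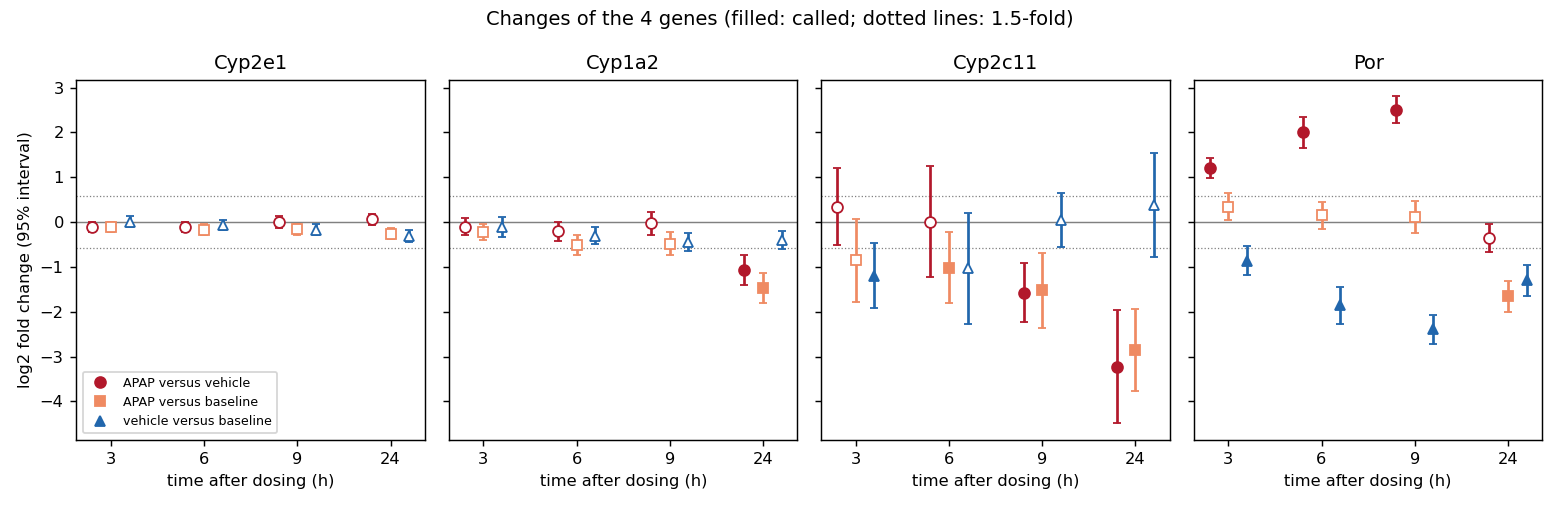
Log2 fold change with its 95% interval (vertical axis) of the 4 genes against h after dosing (horizontal axis; 3, 6, 9 and 24) for APAP over vehicle (red circles), APAP over baseline (orange squares) and vehicle over baseline (blue triangles); filled symbols passed the test and dotted lines mark 1.5-fold. For Por at 9 h the red circle stands at 2.51 and the blue triangle at -2.40, with the orange square between them at 0.11.

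None of the other measured genes that work with P450 enzymes at the membrane rose at 6 or 9 h, where Por did. Of the 7 genes of this list, with APAP against vehicle, 2 passed upward and 1 downward at 3 h, 3 downward at 6 h as well as at 9 h, and 1 upward at 24 h. Their median changes were -0.25, -0.41, -0.50 and 0.26, against -0.02, -0.04, -0.03 and 0.01 over all genes. The same values over all genes hold for the lists below. Of all genes, 6.32%, 14.1%, 17.1% and 3.4% were called in either direction at 3, 6, 9 and 24 h. Cyb5r3, the reductase that feeds cytochrome b5 from NADH, fell at 6 and 9 h (-1.05 ± 0.09 and -1.06 ± 0.09, limma adjusted p = 1.71e-06 and 1.19e-06). In vehicle animals Cyb5r3 rose against baseline at these times (0.81 ± 0.10 and 0.89 ± 0.10). Cyb5b, the cytochrome b5 of the outer mitochondrial membrane, fell at 3, 6 and 9 h (-0.67 ± 0.12, -0.60 ± 0.13 and -1.27 ± 0.20). Cyb5r4, a fused cytochrome b5 and reductase, fell at 6 and 9 h (-0.68 ± 0.05 and -0.79 ± 0.06). Cyb5a, the microsomal cytochrome b5 that P450 enzymes use, differed by -0.27 ± 0.07, -0.41 ± 0.06 and -0.36 ± 0.05 at 3, 6 and 9 h and stayed under 1.5-fold. Ephx1, the microsomal epoxide hydrolase that acts on P450 products, rose by 0.84 ± 0.14 at 3 h and by 1.06 ± 0.07 at 24 h. Against baseline Ephx1 rose at 6 and 9 h in APAP animals (0.83 ± 0.14 and 1.01 ± 0.11). It also rose in vehicle animals of these times (0.59 ± 0.11 and 0.68 ± 0.09). Pgrmc2, a heme-binding membrane protein, rose by 0.62 ± 0.11 at 3 h with APAP against vehicle. Against baseline Pgrmc2 fell in vehicle animals at 3, 6, 9 and 24 h (-1.10 ± 0.11, -1.32 ± 0.08, -1.11 ± 0.08 and -1.29 ± 0.07). It also fell against baseline in APAP animals at 6, 9 and 24 h (-1.15 ± 0.12, -1.61 ± 0.10 and -1.01 ± 0.09).

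Heme is the cofactor of every P450. Of 11 measured genes of heme synthesis and breakdown, 1 rose at each of 3, 6 and 9 h, while the number that fell was 1, 4 and 4 at these times. At 24 h none was called. The median changes of the list were -0.14, -0.31, -0.33 and 0.16 over the 4 times. Hmox1, which breaks heme down, was the gene that rose, by 2.73 ± 0.20, 4.17 ± 0.11 and 4.17 ± 0.08 at 3, 6 and 9 h. The genes that fell encode steps of heme synthesis. Alad fell at these times (-0.80 ± 0.08, -1.44 ± 0.07 and -1.77 ± 0.06), and Ppox fell at 6 and 9 h (-1.15 ± 0.06 and -1.30 ± 0.09). Cpox fell at 6 and 9 h too (-0.64 ± 0.09 and -0.92 ± 0.08). In vehicle animals these genes rose against baseline at 6 and 9 h. Alad rose by 0.90 ± 0.08 and 1.09 ± 0.09, Ppox by 0.71 ± 0.05 and 0.88 ± 0.07, and Cpox by 0.76 ± 0.10 and 0.80 ± 0.10. In APAP animals none of the 11 fell against baseline at 3 and 6 h, and 2 fell at 9 h, with Alad at -0.68 ± 0.09. Alas1, the rate-limiting enzyme of the pathway, differed by -0.01 ± 0.23, -0.25 ± 0.13, 0.06 ± 0.13 and 0.16 ± 0.19 at 3, 6, 9 and 24 h and did not pass (adjusted p = 0.989, 0.153, 0.738 and 0.704). At 24 h the lowest p in the list belonged to Abcb6, a porphyrin transporter, at 0.52 ± 0.11 (adjusted p = 0.00856), under 1.5-fold.

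**Figure D3:**
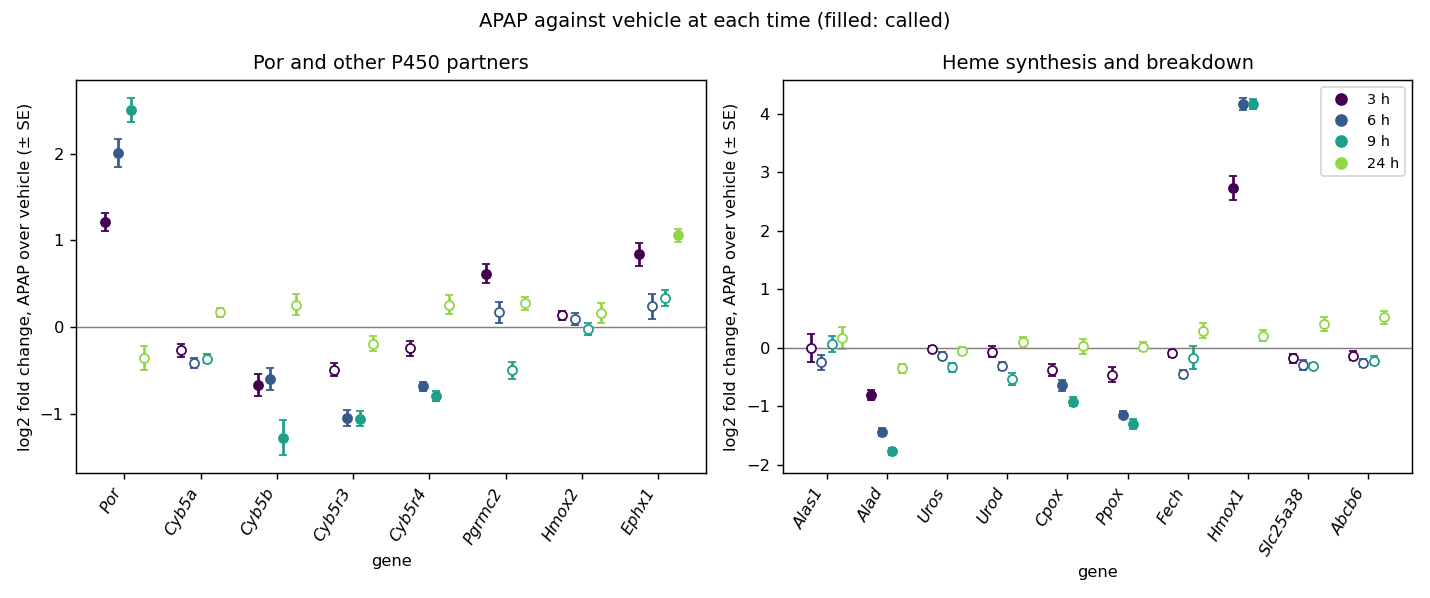
Log2 fold change of APAP over vehicle ± SE (vertical axis) for Por and 7 other genes that work with P450 enzymes (left) and 10 of the 11 measured genes of heme synthesis and breakdown (right), with colour for 3, 6, 9 and 24 h and filled symbols for genes that passed. Por stands at 2.51 at 9 h where Cyb5b, Cyb5r3 and Cyb5r4 stand at -1.27, -1.06 and -0.79, and Hmox1 stands at 4.17 where Alad stands at -1.77.

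Cyp2e1 kept within a narrow band. Its 45 values ran from 13.98 to 14.52 and its group SD from 0.04 to 0.09. At 3 h it averaged 14.34 ± 0.05 in APAP animals and 14.45 ± 0.07 in vehicle animals (SD, n = 5). At 6 h the means were 14.27 ± 0.07 with APAP and 14.38 ± 0.04 with vehicle. They were 14.28 ± 0.09 with APAP and 14.27 ± 0.09 with vehicle at 9 h, then 14.19 ± 0.06 with APAP and 14.13 ± 0.09 with vehicle at 24 h. The groups overlapped at every time. The 95% intervals of the APAP effect were -0.22 to -0.01 at 3 h, -0.22 to 0.01 at 6 h, -0.13 to 0.14 at 9 h and -0.07 to 0.19 at 24 h, all inside 1.5-fold. The highest value lay 0.54 below the highest of the whole table (15.07). Changes of so bright a gene may be compressed on the array, which was not tested.

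Against baseline, Cyp2e1 was not called in any group, and its lowest group means were those at 24 h. Baseline averaged 14.44 ± 0.08 (SD, n = 5). At 24 h the APAP animals differed from it by -0.26 ± 0.06 (limma adjusted p = 0.00456) and the vehicle animals by -0.31 ± 0.06 (adjusted p = 0.00163), with no overlap in either case, as for 10.5% and 9.74% of all genes. An adjusted p under 0.05 at any fold was reached by 28% and 25.5% of all genes in these comparisons. Both differences were under 1.5-fold. Neighbouring groups overlapped throughout its ranking, from vehicle at 3 h at the top to vehicle at 24 h at the bottom.

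Cyp1a2 fell late. At 24 h its values were 11.66, 11.10, 11.64, 11.36 and 12.09 in APAP animals, against 12.81, 12.55, 12.46, 12.56 and 12.82 in vehicle animals. Every APAP animal lay below every vehicle animal, as for 4.48% of all genes. The change was -1.07 ± 0.15 (2.10-fold lower, limma adjusted p = 0.000976), with 1.84% of all genes called lower at this time. At 3, 6 and 9 h the effect was -0.10 ± 0.09, -0.20 ± 0.10 and -0.03 ± 0.11 (adjusted p = 0.469, 0.108 and 0.844), and the groups overlapped. The values of these times ran from 12.70 to 12.94, 12.23 to 12.78 and 12.24 to 12.81 in APAP animals, against 12.64 to 13.18, 12.56 to 12.86 and 12.41 to 12.74 in vehicle animals. The interaction test put the change of the effect between 9 and 24 h at -1.04 ± 0.20 (adjusted p = 0.000468).

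The level of Cyp1a2 at baseline was 12.93, 13.14, 12.94, 13.29 and 12.89. Vehicle animals differed from these by -0.31 ± 0.08 at 6 h, -0.45 ± 0.09 at 9 h and -0.40 ± 0.09 at 24 h, without overlap and at adjusted p = 0.0173, 0.00261 and 0.00841, yet under 1.5-fold. Of all genes, 9.07%, 10.2% and 9.74% were lower without overlap at these times. An adjusted p under 0.05 at any fold was reached by 26.2%, 28.2% and 25.5% of all genes at these times. APAP animals differed from baseline by -0.51 ± 0.11 at 6 h and -0.48 ± 0.12 at 9 h, also without overlap (15.8% and 17.2% of all genes) and under 1.5-fold, where 38.5% and 43.1% of all genes reached such a p. Cyp1a2 fell against baseline at 24 h (-1.47 ± 0.15, 2.76-fold lower, limma adjusted p = 2.61e-05). APAP at 24 h was the 1 group set apart in its ranking, by 0.96 from APAP at 6 h, and all other neighbours overlapped.

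Cyp2c11 varied most between animals. Its group SD ran from 0.25 to 1.40, and its 45 values from 8.74 to 13.81. At 9 h the values were 11.08, 10.19, 10.58, 12.20 and 11.34 in APAP animals, against 13.08, 12.53, 12.64, 12.53 and 12.46 in vehicle animals, with no overlap (18.8% of all genes were lower without overlap). At 24 h they were 10.66, 8.74, 9.15, 9.44 and 10.76 in APAP animals, against 13.58, 10.74, 13.81, 13.34 and 13.44 in vehicle animals. Replicate 2 of the vehicle group was the animal that reached into the APAP range.

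Cyp2c11 fell at 9 h (-1.57 ± 0.30, 2.98-fold lower, limma adjusted p = 0.00100), where 8.47% of all genes were called lower, and at 24 h (-3.23 ± 0.58, 9.38-fold lower, adjusted p = 0.00358). Without replicate 2 of the vehicle group the change at 24 h was -3.79 (adjusted p = 0.000194). At 3 h the values were 12.73, 11.70, 10.85, 12.62 and 10.86 in APAP animals, against 11.44, 11.53, 12.16, 10.53 and 11.37 in vehicle animals. At 6 h they were 11.21, 11.04, 12.58, 12.09 and 10.98 with APAP, against 12.60, 9.32, 12.76, 11.22 and 11.96 with vehicle. The groups overlapped at both times. At 3 and 6 h the effects were 0.35 ± 0.40 and 0.01 ± 0.57 with 95% intervals of -0.52 to 1.21 and -1.24 to 1.25, so that a 2-fold difference in either direction was not detectable at 6 h. Vehicle replicate 2 at 6 h, at 9.32, was the lowest of the vehicle values. The difference between the effects at 24 and 9 h, -1.66 ± 0.71, did not pass (adjusted p = 0.0825). It did without replicate 2 of the 24 h vehicle group (-2.22, adjusted p = 0.00274) or replicate 5 of the 24 h APAP group (-1.91, adjusted p = 0.0476). The Cyp2c genes of the rat are near-identical in places, and how far the probe set for Cyp2c11 separates them was not tested.

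Baseline animals had 13.07, 13.09, 12.73, 12.73 and 11.40 for Cyp2c11. The difference in APAP animals was -0.85 ± 0.42 at 3 h, which did not pass (limma adjusted p = 0.198). Cyp2c11 fell at 6 h (-1.02 ± 0.36, adjusted p = 0.0416), 9 h (-1.53 ± 0.39, adjusted p = 0.00648) and 24 h (-2.85 ± 0.42, adjusted p = 0.000321). The shares of all genes called lower were 4.72%, 7.15% and 3.89% at 6, 9 and 24 h. The call at 6 h was lost when any 1 of 7 animals was left out, namely baseline replicates 1 to 4 (-0.91, -0.90, -0.99 and -0.99, adjusted p = 0.0946, 0.0990, 0.0778 and 0.0788) and APAP replicates 1, 2 and 5 (-0.93, -0.89 and -0.87, adjusted p = 0.0942, 0.0934 and 0.0970).

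In vehicle animals Cyp2c11 fell at 3 h against baseline (-1.20 ± 0.33, limma adjusted p = 0.0209; 1.85% of all genes called lower). This call was lost without baseline replicate 1 (-1.08, adjusted p = 0.0518) or 2 (-1.08, adjusted p = 0.0545). At 6, 9 and 24 h the differences of -1.03 ± 0.57, 0.05 ± 0.27 and 0.38 ± 0.53 did not pass (adjusted p = 0.234, 0.930 and 0.692), although without vehicle replicate 2 the value at 24 h was 0.94 (adjusted p = 0.0395). In the ranking of group means every neighbouring pair overlapped, from vehicle at 24 h (12.98) to APAP at 24 h (9.75).

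Markers of some other cell types differed without overlap between the groups in which Cyp2c11 and Cyp1a2 fell, and those of others overlapped. The endothelial markers averaged 8.31 to 8.54 in APAP animals and 8.69 to 8.81 in vehicle animals at 9 h, and 8.46 to 8.65 and 8.69 to 8.76 at 24 h, without overlap. At 9 h the 7 neutrophil and monocyte markers averaged 5.28 to 6.31 with APAP and 5.33 to 5.60 with vehicle, which overlapped, and 1 of them rose. At 24 h the 10 Kupffer cell and macrophage markers averaged 8.53 to 9.01 with APAP and 8.75 to 9.12 with vehicle, and 1 of them fell. The stellate cell and fibroblast markers averaged 7.388 to 7.629 with APAP and 7.625 to 8.007 with vehicle at 24 h. At this time 3 of these 11 genes fell, with 1.84% of all genes called lower. Both of these 24 h pairs overlapped. At 9 h the stellate cell and fibroblast markers were further apart, at 7.30 to 7.51 with APAP and 7.58 to 7.74 with vehicle. Among these 11 genes 1 rose and 1 fell at 9 h, with a median change of -0.12. The gene that fell was Lrat, which stores retinol as esters in stellate cells (-2.56 ± 0.10). Hepatocyte markers averaged 13.52 to 13.65 with APAP and 13.50 to 13.61 with vehicle at 9 h, and 13.41 to 13.61 and 13.47 to 13.59 at 24 h. Their part in these results was not tested.

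Genes of the same zone, and genes that differ between the sexes in rat liver, gave a further frame. Of 14 measured pericentral genes, none of them a member, 3 fell and 1 rose at 3 and at 6 h, 3 fell at 9 h and 5 fell at 24 h with APAP against vehicle, and their median changes were -0.08, -0.18, -0.19 and -0.28. Cyp7a1, the rate-limiting enzyme of bile acid synthesis, fell at 3, 6 and 9 h (-2.31 ± 0.40, -2.45 ± 0.41 and -3.66 ± 0.35). In vehicle animals Cyp7a1 rose against baseline at these times (2.66 ± 0.29, 2.62 ± 0.39 and 3.58 ± 0.39). In APAP animals no gene of this list rose against baseline at these times, and 1, 3 and 5 fell, Rgn among them. At 24 h Oat, ornithine aminotransferase (-1.95 ± 0.18), Gulo, an enzyme of vitamin C synthesis (-1.12 ± 0.11), and Rgn, a calcium-binding lactonase (-1.07 ± 0.24), fell. Rgn had also fallen at 3, 6 and 9 h (-0.62 ± 0.08, -1.22 ± 0.10 and -1.93 ± 0.23). Glul, the glutamine synthetase of the cells next to the central vein, fell at 3, 6 and 24 h (-0.82 ± 0.12, -0.82 ± 0.08 and -0.62 ± 0.11). Of 11 measured genes that differ between male and female rat liver, none passed at 3 h, 1 fell at 6 h, 3 fell at 9 h and 2 fell at 24 h. The medians were -0.21, -0.15, -0.38 and -0.42. This list was not split by the sex in which a gene is higher. Cyp2a2, another male-specific P450, fell at 9 h (-1.23 ± 0.15), though its close relatives may share probes, which was not tested. Srd5a1, a steroid reductase, fell at 6, 9 and 24 h (-0.96 ± 0.16, -0.96 ± 0.13 and -0.88 ± 0.24). Igf1, a growth hormone target, fell at 9 and 24 h (-0.94 ± 0.13 and -0.81 ± 0.07). Against baseline Igf1 fell in APAP animals at 9 h (-0.77 ± 0.12), and none of these 11 genes was called at 24 h.

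Among 24 measured regulators of the 4 genes, the number that rose with APAP against vehicle was 5, 3, 2 and 0 at 3, 6, 9 and 24 h, and the number that fell was 3, 2, 3 and 1. The shares of all genes called in either direction were 6.32%, 14.1%, 17.1% and 3.4% at these times. The medians of the regulators were -0.06, -0.11, -0.06 and -0.05. Cebpb, an injury-responsive transcription factor, rose by 1.57 ± 0.07, 1.48 ± 0.17 and 1.39 ± 0.11 at 3, 6 and 9 h. Foxa2 and Onecut1, hepatocyte transcription factors, fell at 3 h (-1.55 ± 0.12 and -1.54 ± 0.18), and Cebpa fell at 6 h (-1.01 ± 0.16). Nr1i2, the pregnane X receptor, rose by 0.92 ± 0.09 at 6 h. At 9 h Jak2, the kinase of the growth hormone receptor, rose by 1.33 ± 0.12 and Foxa1 fell (-1.10 ± 0.12). Ghr, the growth hormone receptor, fell at 9 and 24 h (-0.91 ± 0.13 and -1.25 ± 0.20, limma adjusted p = 9.27e-05 and 0.00161). A link between Ghr and the members was not tested. In vehicle animals against baseline 8, 7, 7 and 6 of the 24 fell at 3, 6, 9 and 24 h, and none rose. The shares of all genes called lower in vehicle animals were 1.85%, 2.33%, 2.92% and 2.93%. Nr1i3, the constitutive androstane receptor, and Nr1i2 fell at 9 h (-1.63 ± 0.15 and -1.31 ± 0.12), Onecut1 at 6 h (-3.22 ± 0.21) and Ppara at 3 h (-1.16 ± 0.10). Cish, a growth hormone target, fell at 3, 6 and 24 h (-1.11 ± 0.12, -1.19 ± 0.18 and -1.06 ± 0.29). In APAP animals against baseline 7, 8, 8 and 8 of the 24 fell at 3, 6, 9 and 24 h, and 2, 1, 2 and 1 rose. The shares of all genes called lower in APAP animals were 4.72%, 7.15% and 3.89% at 6, 9 and 24 h.

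The fate of APAP also depends on the conjugating enzymes. Of 16 measured genes for glutathione synthesis, conjugation and the quinone reductase Nqo1, the number that rose with APAP against vehicle was 0, 2, 4 and 9 over the 4 times. The number that fell was 2, 4, 5 and 0, with medians of -0.02, 0.01, 0.04 and 0.67. Of all genes, 6.32%, 14.1%, 17.1% and 3.4% were called in either direction. Against baseline, 1, 5, 6 and 12 of the 16 rose in APAP animals over the 4 times, and 0, 0, 1 and 0 fell. In vehicle animals 2, 2, 2 and 6 rose against baseline, and none fell. The 3 largest changes with APAP against vehicle at 24 h were Gstp1, a glutathione transferase (4.08 ± 0.17), Nqo1 (2.74 ± 0.30), and Gsr, glutathione reductase (1.64 ± 0.16). Of 11 measured genes of glucuronidation and sulfation, none passed with APAP against vehicle at 3 and 6 h. At 9 h 1 passed in each direction, and at 24 h there were 2 that rose, namely Ugt2b7, a glucuronosyltransferase (2.69 ± 0.61), and Ugdh, which makes the glucuronic acid donor (1.35 ± 0.13). The medians of this list were -0.20, -0.13, -0.14 and 0.32. The APAP-oxidising Cyp1a2 and Cyp2c11 fell at 24 h, whereas 8 glutathione genes, Nqo1 and 2 glucuronidation genes rose. Of 6 measured genes of the Ahr response, 1 fell at each time and the number that rose was 1, 2, 1 and 1. Among them Cyp1a1, the close relative of Cyp1a2, fell at 6 and 9 h (-1.99 ± 0.33 and -1.30 ± 0.26), and Tiparp, a feedback inhibitor of Ahr, rose by 1.16 ± 0.22, 1.32 ± 0.21 and 1.54 ± 0.31 at 3, 6 and 9 h and fell at 24 h (-0.59 ± 0.12). In vehicle animals Cyp1a1 rose against baseline at 6 and 9 h (1.65 ± 0.35 and 0.86 ± 0.28). No gene of this list fell against baseline in APAP animals at 6 or 9 h.

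Correlations over all 45 arrays include the differences between groups, since the animals of a group share the time and the dose. By this measure the genes whose values ran most like Por were Kif21a (Pearson r = 0.955), Cpt1a (0.926), Rab3gap1 (0.922), Sun2 (0.921) and Slc49a4 (0.919). Kif21a encodes a kinesin motor, Cpt1a the enzyme that admits fatty acids to mitochondria, Rab3gap1 a subunit that acts on Rab GTPases, and Sun2 a protein of the nuclear envelope. Within groups, after the group means were taken away, r with Por was 0.703 for Kif21a and 0.175 to 0.383 for the other 4. These genes were chosen for running like Por over the same arrays, so a shared group pattern was fixed by the choice and is given as a description. Kif21a differed from baseline by 0.26, 0.15 and -0.06 in APAP animals at 3, 6 and 9 h, and by -0.90, -1.33 and -1.46 in vehicle animals of these times. At 9 h Cpt1a differed from baseline by -1.25 in APAP animals and -4.31 in vehicle animals.

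**Figure D4:**
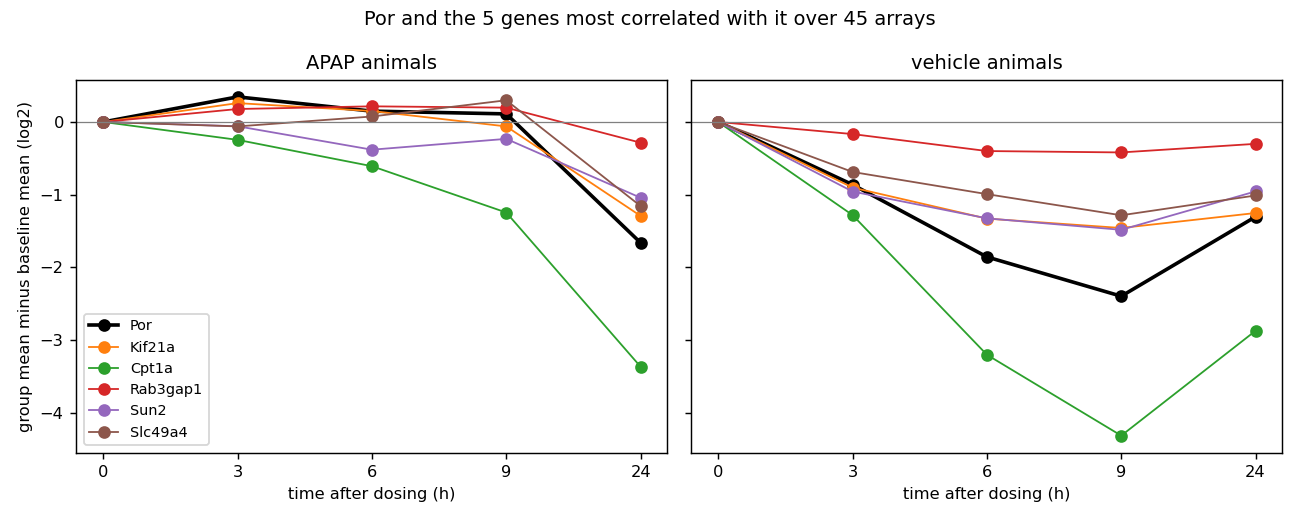
Group mean minus baseline mean on the log2 scale (vertical axis) for Por (black) and the 5 genes with the highest Pearson correlation with it, against time after dosing in h, in APAP animals (left) and vehicle animals (right). At 9 h Por stands at 0.11 in APAP animals and -2.40 in vehicle animals, Kif21a at -0.06 and -1.46, and Cpt1a at -1.25 and -4.31.

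For the P450 genes the highest r were lower. For Cyp1a2 the closest included Pxmp2, a channel of the peroxisome (r = 0.883), Serpina3c (0.861), Acadm, which starts medium-chain fatty acid oxidation (0.837), and Fxyd1 (0.832). For Cyp2e1 the 5 closest were Tex49 (0.788), Gnpat, an enzyme of ether lipid synthesis (0.783), Hsd17b11 (0.775), Cluh (0.766) and Ftcd (0.764). For Cyp2c11 they were Cpq (0.780), Coq10a (0.758), Smim14 (0.744), Ulk2 (0.731) and Apoa2 (0.723). Among the members themselves r was 0.611 between Cyp1a2 and Cyp2c11, 0.558 between Cyp2e1 and Cyp1a2 and 0.107 between Cyp2e1 and Cyp2c11, and within groups it was 0.433, 0.208 and 0.165. Por gave r of 0.207, 0.329 and 0.003 with Cyp2e1, Cyp1a2 and Cyp2c11, and within groups -0.25, 0.178 and 0.153.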

How the data were processed

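Liver RNA from 45 rats was measured on Affymetrix arrays, 1 array per animal. The authors deposited log2 intensities that, per the labels and methods, they had made with the affy package 1.64.0 in R 3.6.1, by robust multi-array averaging (RMA) with a custom probe set definition that gives 1 probe set per gene. RMA subtracts background, equalises array distributions and summarises probes, so a loss of all RNA is not visible. Large differences of bright genes may be compressed on arrays, which was not tested here. The table held 13877 genes, of which 13530 matched the current RefSeq gene table. Another 45 columns, whose codes could not be tied to samples, were not used. Array batches and scan dates are not given in the sources used here, and the number of arrays limits the precision.

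Each comparison of 2 groups was fitted with limma 3.58.1 (lmFit and eBayes) in R 4.3.3 on its 10 arrays, and each change of the APAP effect between times on its 20 arrays. P-values were two-sided and adjusted over all 13877 genes by Benjamini-Hochberg, and the scripts were tested on simulated data. The 15 gene lists and the 4 members were chosen with earlier results of these data known. In each list and comparison described, up to 3 called genes with the largest change were named, or the gene with the lowest p where none was called, together with the 5 genes most correlated with each member. Some items that the rule names are not reported here. Cyb5a, Cpox and Alas1, and some further times of genes named by this rule, were added after their values were seen. Alternatives were 1 fit of all 45 arrays, array quality weights, cyclic loess, a filter removing the dimmest 25% of genes, limma-trend, a fit with the replicate number as a block, and leaving out each animal in turn.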

Additional observations from a re-analysis of the deposited data

Results flagged for a closer look

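Of 36 groups of 5 animals (the 4 genes in 9 groups), 2 held an animal far from the other 4 by Dixon's test, with a critical ratio of gap to range of 0.71; chance flags about 1 in 20 groups. Both were for Cyp2c11. Vehicle replicate 2 at 24 h stood at 10.74, with the nearest other animal at 13.34 (ratio 0.847). Baseline replicate 5 stood at 11.40, with the nearest other animal at 12.73 (ratio 0.786).

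The APAP effect differed between times, by the interaction test in limma, in 3 cases. The effect on Por was 0.80 ± 0.20 higher at 6 h than at 3 h (adjusted p = 0.00833). The effect on Por was lower at 24 h than at 9 h, with a difference of -2.86 ± 0.21 (adjusted p = 2.87e-09). The effect on Cyp1a2 was also lower at 24 h than at 9 h, with a difference of -1.04 ± 0.20 (adjusted p = 0.000468).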

How the results depend on the processing

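The 60 results for the 4 genes were refitted under 6 other settings, and 345 of these 360 values kept their direction and their side of the threshold, as did 683 of 720 fits that left out 1 animal. The number of genes called in each of the 15 comparisons stayed within 1.5 times under those 6 settings. The direction turned only for values that passed in neither fit. With array quality weights these were Cyp2c11 with APAP against vehicle at 6 h (-0.14), Cyp1a2 at 9 h (0) and Cyp2c11 in vehicle against baseline at 9 h (-0.05). With cyclic loess they were Cyp2e1 with APAP against vehicle at 6 h (0.09), Cyp1a2 at 9 h (0.15), Cyp2e1 against baseline in vehicle animals at 3 h (-0.01) and in APAP animals at 9 h (0.02), and the change of its APAP effect between 9 and 24 h (-0.18). Calls changed for Cyp2c11 in 4 results. In 1 fit of all 45 arrays, vehicle against baseline at 3 h (-1.20, limma adjusted p = 0.123) and APAP against baseline at 6 h (-1.02, adjusted p = 0.128) no longer passed, and the second of these was also lost with cyclic loess (-0.93, adjusted p = 0.0649). The change of its APAP effect between 9 and 24 h passed with weights (-1.75, adjusted p = 0.0480) and cyclic loess (-1.88, adjusted p = 0.0496). Taken over all genes, animals with the same replicate number did not deviate together, with correlations of -0.23 to 0.31. Whether they did for Cyp2c11 alone was not tested. With the replicate number as a block, Cyp2c11 passed in APAP against baseline at 3 h (-0.85, adjusted p = 0.0464) and in that change of effect (-1.66, adjusted p = 0.0302), and no other call of the 4 genes changed. The cause of these changes was not tested.

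Leaving out 1 animal turned the direction of uncalled values or changed a call in 11 results. For Cyp2c11 the values ran from -0.55 to 0.31 in APAP against vehicle at 6 h, from -1.50 to -0.98, -0.26 to 0.17 and 0.07 to 0.94 in vehicle against baseline at 3, 9 and 24 h, from -1.33 to -0.87 in APAP against baseline at 6 h, and from -2.22 to -1.38 in the change of effect between 9 and 24 h. For Cyp2e1 they ran from -0.02 to 0.04 in APAP against vehicle at 9 h, from -0.02 to 0.03 in vehicle against baseline at 3 h, and from -0.02 to 0.03 in the change of effect between 3 and 6 h. They ran from -0.10 to 0.05 for Cyp1a2 in APAP against vehicle at 9 h and from 0.41 to 0.65 for Por in the change of effect between 6 and 9 h. The deposited values were already corrected for background, so another correction was not tried, and no signal over background could be given.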
